A study of Mus musculus with 9 samples.

Results

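The interferon response genes described here are 36 mouse genes that cells switch on when interferon reaches them. They were chosen by name and found on the array by the gene symbol, an older symbol or the accession of their probes. Of the 36, 35 had a probe, and all 35 passed the filter on dim probes, a Cy5 signal well above background on at least 3 of 9 arrays. Xaf1 had no probe named for it. The 36 genes had 47 probes in all, of which 45 passed, out of 26871 probes (13123 named genes) that passed on the whole array, and the brightest probe stood for its gene where it had several.

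Interferons are secreted proteins that cells release after sensing foreign nucleic acid (type I) or that activated T and NK cells release (type II). Both bind surface receptors that signal through Jak kinases. Type I signalling acts mainly through the interferon-stimulated response element (ISRE) in the promoters of its targets, and type II signalling mainly through the gamma-activated site (GAS). The genes so induced block viral replication, sense nucleic acid, restrict intracellular microbes and feed back on the pathway, and in tumours they are expressed by cancer cells as well as by infiltrating immune cells.

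RNA came from tumours of 3 variants of B16-F10, a pigmented mouse melanoma line, in which the level of histidine decarboxylase (HDC), which turns histidine into histamine, was modified. Histamine output is diminished in the HDC-A variant, unmodified in HDC-M, and enhanced in HDC-S. The study asks how histamine released by the tumour bears on melanoma progression. Each group had 6 tumours, whose RNA was pooled at random in sets of 2, so that 3 pools per group were measured on 9 arrays. Each pool was labelled with Cy5 and set beside Cy3-labelled RNA of cultured HDC-M cells, with no dye swap. Each group is a single line variant, so a difference between groups cannot be told apart from a difference between the lines, and the vector, the host strain and the animals' age are not given in the sources used here. Values are log2 ratios of tumour over cultured cells unless they are called differences between groups. A ratio above 0 means more RNA in the tumour than in the cultured cells, open to a dye effect that is common to all arrays.

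The Cy5 signal was well above background at 58.0% to 69.7% of probe spots per array, and replicates 1 and 2 of each group were scanned on the first scan day and replicate 3 on another. The highest share was on HDC-M replicate 3, against 58.0% and 58.7% on the other HDC-M arrays. Its median log2 ratio over the probes kept was also the lowest, at 0.02 against 0.05 to 0.07 on the other arrays. The Hdc probe was dim, at 1.46 times the negative controls, and did not separate the groups, with a log2 difference of 0.08 (SE 0.14, limma adjusted p = 0.864) for HDC-S against HDC-M. Of 10 melanocyte markers, 8 had a probe, all well above background on 9 arrays, so pigment cell RNA was measured on each array. The mean ratio over the 7 of them with a value on every array lay between 0.31 and 0.90, relative to cultured melanoma cells. Of the 8, 1 passed in HDC-S against HDC-M, 0 in HDC-A against HDC-M and 2 in HDC-S against HDC-A (limma adjusted p below 0.05), all lower in HDC-S. Of all probes 0.681%, 1.44% and 5.26% passed in that order. HDC-A replicate 1 and HDC-M replicate 3 stood apart from the other arrays in the interferon genes. For all members and for each role, median differences without one of them are also given. Differences of single genes are from all arrays unless stated.

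RefSeq promoters (build GRCm38.p6, from 250 bases before to 50 bases after a transcript start) were available for 28 of the 36 genes and are shown because these genes varied together across arrays. The ISRE core (GAAA, any 2 bases, GAAA), searched on both strands, was found in 16 of the 28 genes (57.1%), against 3.99% of 27025 genes in the table. The GAS motif TTCNNNGAA, which reads the same on both strands, was found in 9 (32.1%), against 9.55%. Of the 28, 5 held both motifs (17.9%), against 0.540%. The genes were chosen by name as interferon-induced, so an excess of these motifs follows from the choice of the list. The bearing of the motifs on the tumour values was not tested. Oas1a, Gbp3 and Oas3 are printed as the genes with the most ISRE matches upstream of the start among those whose values are given array by array; Ifih1 has a match after the start and is not printed. Isg15, Igtp and Tgtp1 were added after their sequences were seen, Isg15 for its run of matches and the others for their shared arrangement. Each window runs 5′ to 3′ on the gene's own strand, and capitals mark ISRE and GAS matches.
Oas1a, chr5:120907526-120907575, minus strand: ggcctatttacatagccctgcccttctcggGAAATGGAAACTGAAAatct
Oas3, chr5:120777695-120777764, minus strand: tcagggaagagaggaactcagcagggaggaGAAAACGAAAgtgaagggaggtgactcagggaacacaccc
Gbp3, chr3:142559969-142560043, plus strand: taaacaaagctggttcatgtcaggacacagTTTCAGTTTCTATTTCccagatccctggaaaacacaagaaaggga
Isg15, chr4:156200845-156200926, minus strand: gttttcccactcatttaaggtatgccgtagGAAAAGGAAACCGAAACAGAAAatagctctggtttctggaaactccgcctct
Igtp, chr11:58199481-58199555, plus strand: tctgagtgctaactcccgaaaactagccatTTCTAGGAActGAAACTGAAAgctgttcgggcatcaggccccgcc
Tgtp1, chr11:48992284-48992364, minus strand: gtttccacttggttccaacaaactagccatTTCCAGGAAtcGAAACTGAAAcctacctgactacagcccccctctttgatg
Isg15 carried 3 overlapping ISRE matches, the first 78 bases before the start, and Oas1a carried 2 that began 20 and 14 bases before it. In Igtp and Tgtp1 the ISRE match began 11 bases after the start of a GAS match, at 34 and 77 bases before the transcript start. Gbp3 carried its 2 overlapping matches on the opposite strand. A match is a description of these letters, and the absence of one says only that they are not in this window.

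**Figure D1:**
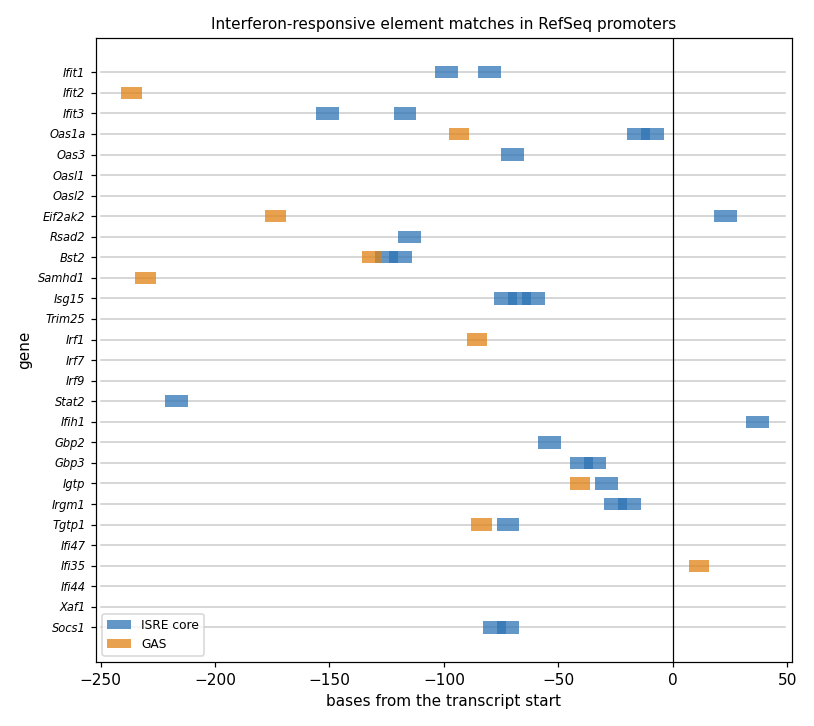
Matches to the ISRE core (blue) and to GAS (orange) in the promoters of the 28 genes with a RefSeq promoter; the horizontal axis is bases from the transcript start, and a gene with several starts is drawn for the start with the most ISRE matches. ISRE matches lie upstream of the start in all but Eif2ak2 and Ifih1, and 5 genes carry both motifs.

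The strongest pattern in the interferon genes was a difference between arrays of the same group. Of the 33 genes with a value on every array, HDC-A replicate 1 was the lowest of the 9 arrays in 30 and HDC-M replicate 3 in the other 3. Over all probes with complete values these arrays were lowest for 10.5% and 15.6%. Averaged over the 33 genes, the log2 ratio was 0.44, 1.67 and 2.01 on HDC-A replicates 1, 2 and 3, 1.54, 1.79 and 0.91 on HDC-M replicates 1, 2 and 3, and 1.81, 1.81 and 1.92 on the HDC-S replicates. HDC-A thus held both the lowest and the highest array, HDC-M had a low array of its own, and the HDC-S arrays lay within 0.12 of each other. HDC-M replicate 3 was scanned on another day than HDC-M replicates 1 and 2, so pool and scan day cannot be told apart there. HDC-A replicates 1 and 2 were scanned on the same day, and HDC-A replicate 3 on the other. In the Cy5 channel alone, without the reference, HDC-A replicate 1 was again the lowest of the 9 arrays in 30 of the 33 genes. Among 10 further probes of these genes, HDC-A replicate 1 was the lowest HDC-A array for 9 and HDC-M replicate 3 the lowest HDC-M array for 8. Tumour RNA is a mixture of cancer and host cells, so fewer cells of a type and less RNA per cell cannot be told apart.

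**Figure D2:**
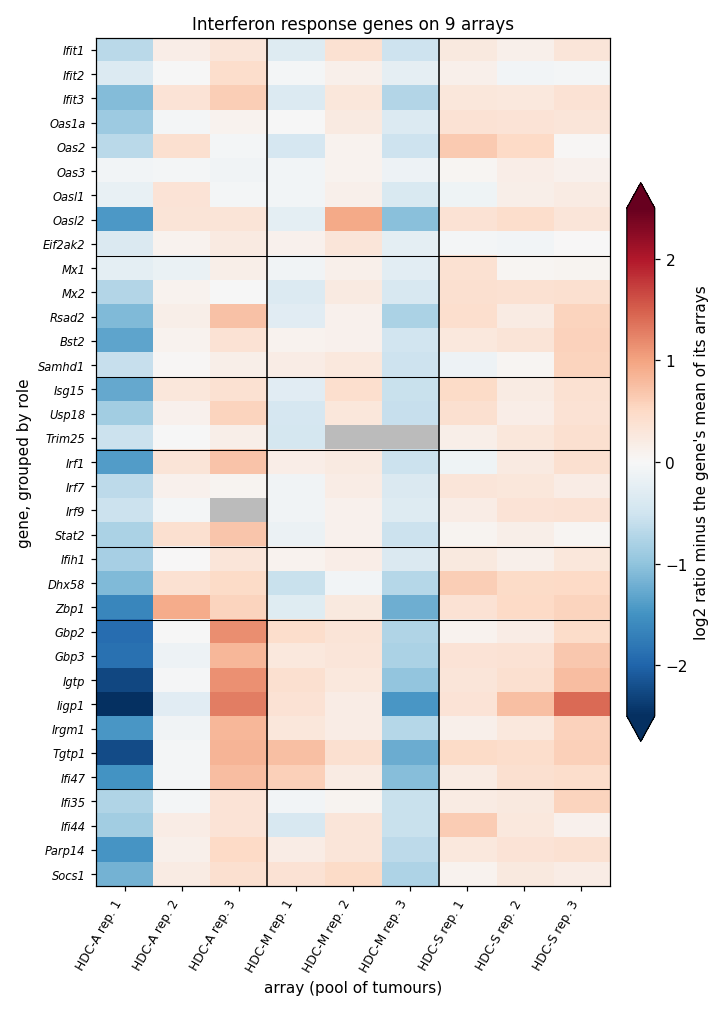
Each gene's log2 ratio on each array minus the mean of that gene's arrays, for 35 genes grouped by role (rows) and 9 arrays (columns); red is above and blue below the gene's mean, grey is a spot left out as an outlier, and the colour scale ends at 2.5. HDC-A replicate 1 is blue in nearly every row, HDC-M replicate 3 in most, and the 3 HDC-S columns differ little.

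The SD among the arrays of a group shows the same contrast gene by gene. Its median over the members was 0.12 for HDC-S, 0.44 for HDC-M and 0.78 for HDC-A, while over all probes the median SD was 0.0821, 0.0835 and 0.0961 in that order. HDC-A had the largest SD of the 3 groups in 32 of 34 genes, and HDC-S the smallest in 33 of 34 (Trim25, with a single HDC-M value, is not counted). Iigp1 had the largest pooled within-group SD, 1.30, above that of 99.9% of all probes, and Oas3 the smallest, 0.0729, above that of 24.3%. The Oas3 probe was dim, with a Cy5 signal of 1.42 times the negative controls. The median member had a pooled SD of 0.55, larger than that of 98.7% of all probes.

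**Figure D3:**
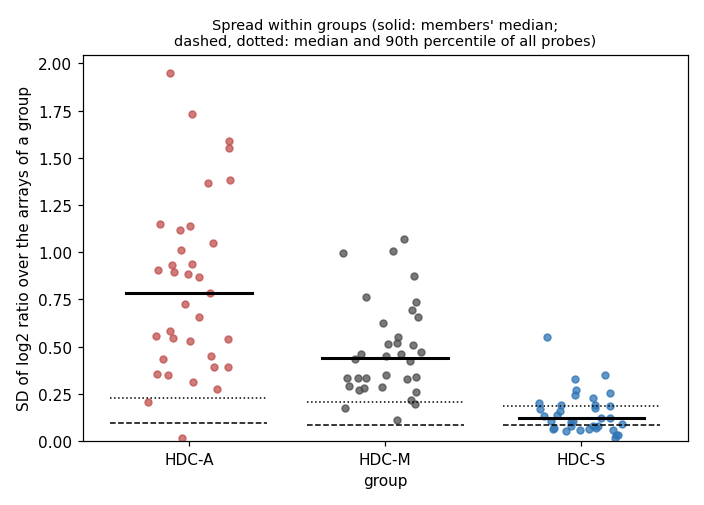
SD of the log2 ratio over the arrays of HDC-A, HDC-M and HDC-S, 1 point per interferon gene; the solid bar is the members' median, and the dashed and dotted lines are the median and 90th percentile of the SD over all probes in that group. Most members lie above the dotted line in HDC-A and HDC-M, and most lie below it in HDC-S.

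Without a block, no member passed the test in any comparison of the groups (limma, Benjamini-Hochberg over all probes, adjusted p below 0.05). For HDC-S against HDC-M this was 0 of 35 members, where 0.681% of all probes passed. For HDC-A against HDC-M it was 0 of 35, where 1.44% passed, and for HDC-S against HDC-A 0 of 35, where 5.26% passed. With the replicate number as a block the last count was 1 (Irf9), where 4.19% of all probes passed. The F-test for any difference among the groups also gave 0 of 35, where 4.65% of probes passed. At an unadjusted limma p below 0.05 the counts were 5, 0, 5 and 2 members, against 14.5%, 15.5%, 19.4% and 20.9% of all probes. The lowest limma adjusted p were 0.237 (Trim25), 0.625 (Trim25) and 0.0846 (Irf9) in the 3 comparisons and 0.116 (Irf9) in the F-test. A p that misses the threshold does not show that the groups are alike, and the intervals of single genes were wide, as given with each role.

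In HDC-S against HDC-M, 34 of 35 members had a positive difference, with a median of 0.44 and a range of -0.09 to 1.14, where 53.2% of all probes were positive. The exception was Eif2ak2. The HDC-S and HDC-M arrays did not overlap for 10 members (28.6%), all higher in HDC-S, where 22.3% of all probes did not overlap and 11.9% did so with HDC-S higher. Those 10 were Oas1a, Mx2, Rsad2, Bst2, Trim25, Irf9, Dhx58, Zbp1, Gbp3 and Ifi35. Without HDC-M replicate 3 the median difference was 0.18, with 27 of 35 positive. Within the first scan day it was 0.15 with 25 of 35 positive, and on the other day, with 1 array per group and no test, it was 0.95. After scaling all arrays to the same spread, 23 of 35 were positive (median 0.16), and after median centring 27 of 35 (median 0.17, or 0.29 relative to a shift of all probes by -0.117).

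In HDC-A against HDC-M, 13 members had a positive and 22 a negative difference, with a median of -0.07, where 51.9% of all probes were positive. The groups' arrays overlapped for every member, while 20.9% of all probes had no overlap. This sign rested on single arrays. Without HDC-A replicate 1 the median was 0.44 and 34 of 35 members were positive, none of which passed (lowest limma adjusted p = 0.0654), while without HDC-M replicate 3 the median was -0.23 with 6 of 35 positive. Leaving out HDC-M replicate 2 also turned the median, to 0.06 with 24 of 35 positive. The scan days also differed in sign, at -0.39 within the first and 1.13 on the other. After median centring 5 of 35 were positive, against 13, with a median of -0.22 relative to a shift of all probes by -0.109, and after scaling 9 of 35 were.

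In HDC-S against HDC-A, 32 of 35 members had a positive difference, with a median of 0.48, where 51.4% of all probes were positive. The arrays of the groups did not overlap for 5 members (14.3%), all higher in HDC-S, where 24.4% of all probes did not overlap and 13.3% did so with HDC-S higher. The members' count is thus near the background. They were Oas1a, Oas3, Mx2, Irf7 and Irf9. Without HDC-A replicate 1 the median was 0.05, with 20 of 35 positive. Within the first scan day it was 0.71, and on the other it was -0.05. The 3 comparisons share their arrays and are not independent of each other.

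**Figure D4:**
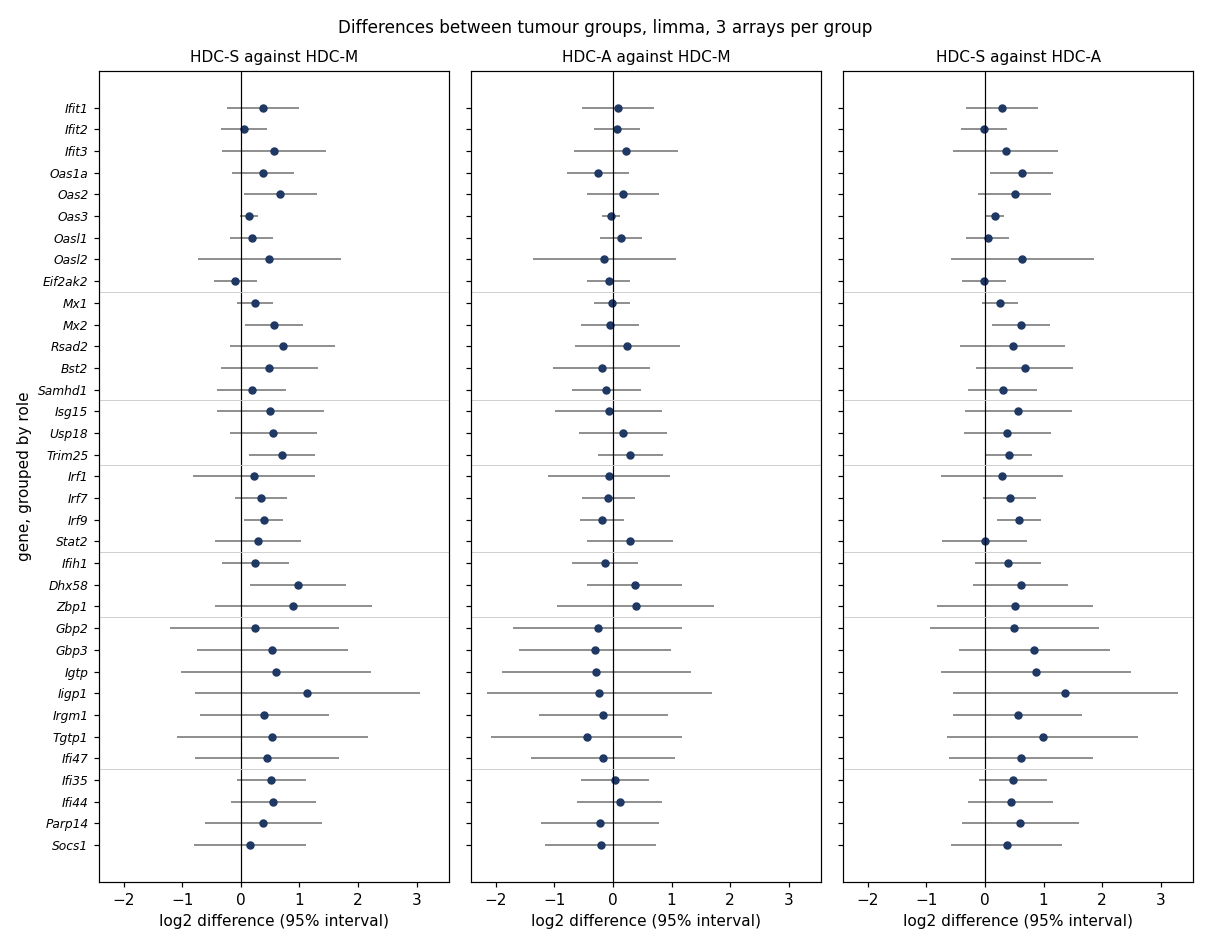
Log2 difference between groups for each of the 35 genes in the 3 comparisons (points), with the 95% interval from limma (lines) and thin grey lines between the roles. Points lie to the right of 0 for 34 genes in HDC-S against HDC-M and 32 in HDC-S against HDC-A, and most intervals cross 0; the interferon-induced GTPases have the widest.

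The RNA-binding and RNA-degrading effectors bind viral RNA (the Ifit proteins), make oligoadenylates that switch on RNase L (the Oas enzymes), or stop translation (Eif2ak2, also called PKR). Oas1a had log2 ratios of 0.03, 0.90 and 1.02 in HDC-A, 0.94, 1.17 and 0.60 in HDC-M and 1.30, 1.28 and 1.24 in HDC-S. Every HDC-S array was above every other array, and HDC-A replicate 1 was far below the rest. Its difference was 0.38 (SE 0.24, limma adjusted p = 0.515) against HDC-M and 0.62 (SE 0.24, limma adjusted p = 0.178) against HDC-A. Oas3 had ratios of 0.01, 0.02 and -0.01 in HDC-A, 0.01, 0.16 and -0.05 in HDC-M and 0.12, 0.24 and 0.17 in HDC-S. HDC-S lay above HDC-A on every array and overlapped HDC-M, by differences of 0.17 (SE 0.07) and 0.14 (SE 0.07). In HDC-S against HDC-M the log2 difference was 0.38 for Ifit1, 0.05 for Ifit2, 0.57 for Ifit3, 0.68 for Oas2, 0.19 for Oasl1, 0.49 for Oasl2 and -0.09 for Eif2ak2. Oas2, with a 95% interval of 0.06 to 1.30, was the only gene of this role whose interval excluded 0 there. The HDC-A minus HDC-M difference was 0.09 for Ifit1, 0.07 for Ifit2, 0.22 for Ifit3, -0.25 for Oas1a, 0.17 for Oas2, -0.04 for Oas3, 0.14 for Oasl1, -0.15 for Oasl2 and -0.07 for Eif2ak2. For HDC-S minus HDC-A it was 0.29 for Ifit1, -0.02 for Ifit2, 0.35 for Ifit3, 0.50 for Oas2, 0.05 for Oasl1, 0.64 for Oasl2 and -0.02 for Eif2ak2. Over these 9 genes the median HDC-S minus HDC-M difference was 0.38, and 0.09 without HDC-M replicate 3. The median HDC-A minus HDC-M difference was 0.07, and 0.26 without HDC-A replicate 1. The Oas1 and Ifit genes have close copies in the mouse whose RNA these probes may also bind.

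Among the other antiviral effectors, Mx1 and Mx2 are dynamin-like GTPases that trap viral particles, Rsad2 (viperin) makes a chain-terminating nucleotide, Bst2 (tetherin) holds budding virus at the cell surface and Samhd1 degrades deoxynucleotides. Mx2 had ratios of -0.48, 0.34 and 0.25 in HDC-A, -0.08, 0.49 and -0.15 in HDC-M and 0.66, 0.63 and 0.66 in HDC-S. The HDC-S arrays agreed to within 0.03 and lay above all other arrays. The difference was 0.56 (SE 0.22, limma adjusted p = 0.281) against HDC-M and 0.61 (SE 0.22, limma adjusted p = 0.157) against HDC-A. Mx1 had ratios of 0.05, 0.11 and 0.43 in HDC-A, 0.19, 0.41 and 0.03 in HDC-M and 0.66, 0.33 and 0.35 in HDC-S, so the groups overlapped, and it was well above background on 8 of 9 arrays. The HDC-S minus HDC-M difference was 0.23 for Mx1, 0.71 for Rsad2, 0.48 for Bst2 and 0.19 for Samhd1. For HDC-A minus HDC-M it was -0.01 for Mx1, -0.05 for Mx2, 0.25 for Rsad2, -0.19 for Bst2 and -0.11 for Samhd1. For HDC-S minus HDC-A it was 0.25 for Mx1, 0.47 for Rsad2, 0.67 for Bst2 and 0.30 for Samhd1. The other probes of Rsad2 gave 0.51 and 0.46 for HDC-S against HDC-M. Over the 5 genes the median HDC-S minus HDC-M difference was 0.48, and 0.29 without HDC-M replicate 3. The median HDC-A minus HDC-M difference was -0.05, and 0.21 without HDC-A replicate 1.

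ISG15 is a ubiquitin-like protein that is joined to other proteins. Usp18 removes it and also damps signalling at the type I receptor, and Trim25 is a ligase that acts in RNA sensing. Isg15 was the only member whose HDC-M mean lay below the cultured cells, at -0.31 ± 0.51 (SD, n = 3). Usp18 had ratios of -0.33, 0.66 and 1.09 in HDC-A, 0.11, 0.82 and -0.04 in HDC-M and 0.94, 0.72 and 0.91 in HDC-S. The HDC-S values lay inside the HDC-A range. Trim25 had ratios of 1.18, 1.70 and 1.85 in HDC-A, 1.28 on HDC-M replicate 1 alone, and 1.84, 1.99 and 2.11 in HDC-S. The other HDC-M spots were left out as outliers, so its HDC-M value rests on 1 array, and the fit takes the spread from the remaining arrays. Its difference was 0.71 (SE 0.24, limma adjusted p = 0.237) against HDC-M, and its other probe, with values on all arrays, gave 0.44. Between HDC-S and HDC-M the difference was 0.50 for Isg15 and 0.56 for Usp18. The HDC-A minus HDC-M difference was -0.07 for Isg15, 0.17 for Usp18 and 0.30 for Trim25, and for HDC-S minus HDC-A it was 0.57 for Isg15, 0.38 for Usp18 and 0.41 for Trim25. Over the 3 genes the median HDC-S minus HDC-M difference was 0.56, and 0.39 without HDC-M replicate 3. The median HDC-A minus HDC-M difference was 0.17, and 0.50 without HDC-A replicate 1.

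The transcription factors carry the signal. Stat2 and Irf9 belong to the complex that binds the ISRE, Irf7 amplifies type I interferon production, and Irf1 acts mainly downstream of type II interferon. Irf9 had ratios of 0.25 and 0.74 on HDC-A replicates 1 and 2, where the spot of replicate 3 was left out, 0.70, 0.89 and 0.46 in HDC-M, and 0.96, 1.13 and 1.15 in HDC-S. Every HDC-S array was above every other array. Its difference was 0.58 (95% interval 0.21 to 0.96, limma adjusted p = 0.0846) against HDC-A and 0.39 (0.06 to 0.73, limma adjusted p = 0.269) against HDC-M. It passed against HDC-A with the replicate number as a block (0.62, limma adjusted p = 0.0454). Without HDC-A replicate 2, HDC-A rests on replicate 1 alone for this gene, and the difference was 0.83. It also passed when its probes were averaged (0.45, limma adjusted p = 0.0356). In that average HDC-A replicate 3 rests on the dimmer probe alone, at -0.20, while every other array averages both probes. The averaged HDC-A value is thus not like for like with HDC-S. Its other probe, well above background on 3 arrays, differed by 0.08 between HDC-S and HDC-A. Irf7 had ratios of -0.34, 0.43 and 0.38 in HDC-A, 0.24, 0.50 and -0.04 in HDC-M and 0.62, 0.60 and 0.50 in HDC-S. HDC-S lay above HDC-A on every array, by 0.42 (SE 0.20), and reached HDC-M in its lowest array. The HDC-S minus HDC-M difference was 0.34 for Irf7, 0.22 for Irf1 and 0.29 for Stat2. For HDC-A minus HDC-M it was -0.08 for Irf7, -0.07 for Irf1, -0.19 for Irf9 and 0.30 for Stat2, and for HDC-S minus HDC-A it was 0.30 for Irf1 and -0.01 for Stat2. Over the 4 genes the median HDC-S minus HDC-M difference was 0.31, and 0.16 without HDC-M replicate 3. The median HDC-A minus HDC-M difference was -0.08, and 0.37 without HDC-A replicate 1.

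The nucleic acid sensors detect foreign RNA (Ifih1, also called MDA5, and its relative Dhx58, also called LGP2) or nucleic acid in the left-handed Z form (Zbp1). Dhx58 had ratios of 0.22, 1.70 and 1.81 in HDC-A, 0.76, 1.26 and 0.61 in HDC-M and 1.93, 1.80 and 1.82 in HDC-S. All HDC-S arrays were above all HDC-M arrays, HDC-A replicate 3 reached the HDC-S range, and HDC-A replicate 1 was the lowest. The difference from HDC-M was 0.98 (95% interval 0.16 to 1.79, limma adjusted p = 0.256). Without HDC-A replicate 1, which adds to the shared estimate of the spread, the same difference had an SE of 0.15 and passed (limma adjusted p = 0.0442). Ifih1 had ratios of -0.61, 0.22 and 0.51 in HDC-A, 0.30, 0.39 and -0.15 in HDC-M and 0.45, 0.34 and 0.49 in HDC-S, with overlap between all groups. Between HDC-S and HDC-M the difference was 0.25 for Ifih1 and 0.90 for Zbp1. The other Ifih1 probe, dimmer and well above background on 7 arrays, gave -0.02 there and 0.04 for HDC-S minus HDC-A. The HDC-A minus HDC-M difference was -0.14 for Ifih1, 0.37 for Dhx58 and 0.39 for Zbp1, and for HDC-S minus HDC-A it was 0.39 for Ifih1, 0.61 for Dhx58 and 0.51 for Zbp1. Over the 3 genes the median HDC-S minus HDC-M difference was 0.90, and 0.50 without HDC-M replicate 3. The median HDC-A minus HDC-M difference was 0.37, and 0.88 without HDC-A replicate 1.

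The interferon-induced GTPases, guanylate-binding proteins (Gbp2, Gbp3) and immunity-related GTPases (Igtp, Iigp1, Irgm1, Tgtp1, Ifi47), attack the vacuoles of intracellular microbes and are known as strong targets of type II interferon. Their median pooled within-group SD was 0.98, the largest of the 7 roles. Iigp1 had ratios of 3.14, 5.44 and 7.02 in HDC-A, 6.09, 5.92 and 4.28 in HDC-M and 6.07, 6.48 and 7.15 in HDC-S. The HDC-A arrays differed among themselves by 3.88, which is 14.7-fold. The group means differed by less: 1.14 (95% interval -0.78 to 3.06) for HDC-S against HDC-M and 1.37 (-0.55 to 3.29) for HDC-S against HDC-A. Its signal in the cultured cells was 0.98 times the negative controls, so the ratio is set against a reference at background. Reference signals were also near the negative controls for Ifi47 (1.13 times) and Tgtp1 (1.23). Outside this role the same held for genes such as Mx1 (1.02), Oasl1 (1.07), Oasl2 (1.09), Oas3 (1.09), Oas2 (1.12) and Irf7 (1.14). Gbp3 had ratios of 0.31, 2.06 and 3.01 in HDC-A, 2.44, 2.48 and 1.38 in HDC-M and 2.52, 2.53 and 2.86 in HDC-S. HDC-S was above every HDC-M array and inside the HDC-A range. The HDC-A arrays spanned 8.44-fold for Gbp2, 10.6-fold for Igtp and 8.53-fold for Tgtp1. The HDC-S minus HDC-M difference was 0.24 for Gbp2, 0.54 for Gbp3, 0.59 for Igtp, 0.40 for Irgm1, 0.54 for Tgtp1 and 0.44 for Ifi47. The median of the 7, 0.54 with all 7 above 0, was 0.08 with 4 above 0 without HDC-M replicate 3. For HDC-A minus HDC-M it was -0.26 for Gbp2, -0.31 for Gbp3, -0.28 for Igtp, -0.23 for Iigp1, -0.17 for Irgm1, -0.44 for Tgtp1 and -0.17 for Ifi47, all 7 below 0, and all 7 were above 0 without HDC-A replicate 1 (median 0.44). For HDC-S minus HDC-A it was 0.50 for Gbp2, 0.84 for Gbp3, 0.87 for Igtp, 0.56 for Irgm1, 0.98 for Tgtp1 and 0.61 for Ifi47, and 3 of the 7 were above 0 without that array. The Gbp3 probe carries an older name in the files, and Tgtp1 has a near-identical copy.

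The GTPases also ordered some pools differently from the other members. In HDC-M, replicate 2 was above replicate 1 in all 27 other members with both values, by a median of 0.23, and in 1 of 7 GTPases, with a median of -0.15. In HDC-A, replicate 3 was above replicate 2 in all 7 GTPases, by a median of 0.95, and in 21 of 27 other members, by 0.15. In HDC-S, replicate 3 was above replicate 1 in all 7 GTPases, by 0.38, and in 16 of 28 other members, by 0.05. Replicate 3 was scanned on another day than replicates 1 and 2, so in the HDC-A and HDC-S orders pool and scan day cannot be told apart. The difference in order was noticed in the values and was not tested.

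**Figure D5:**
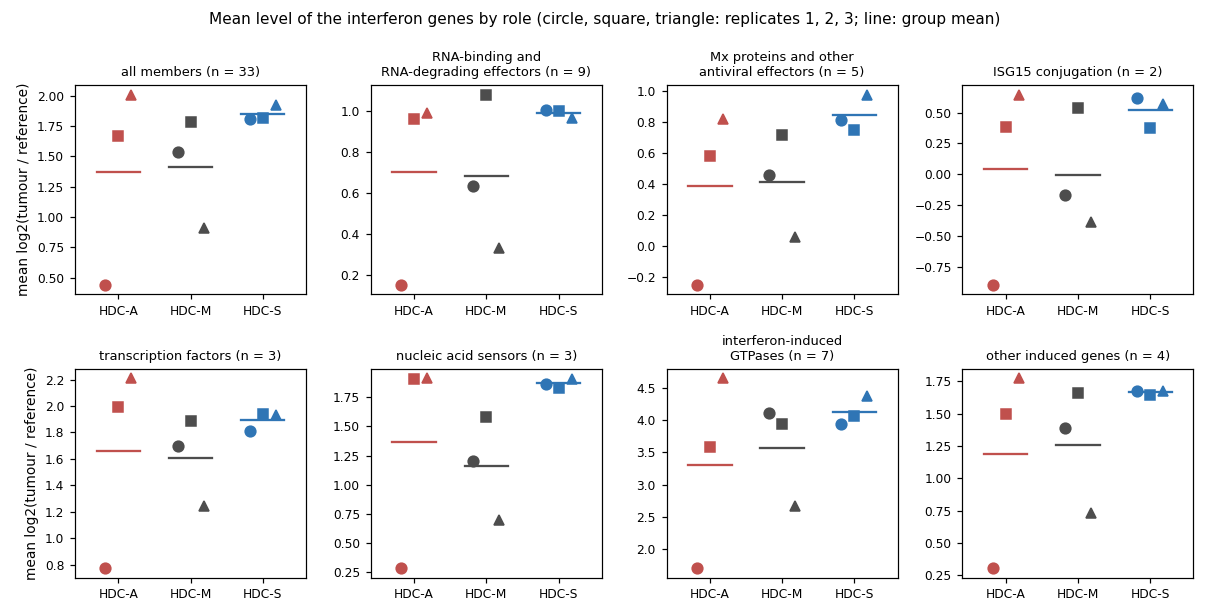
Mean log2 ratio of tumour over cultured cells on each array for all members and for each role, over the genes with a value on all 9 arrays (their number is above each panel); circles, squares and triangles are replicates 1, 2 and 3, bars are group means, and each panel has its own vertical axis. HDC-A replicate 1 is lowest in every panel, from 1.70 in the GTPases to -0.89 in ISG15 conjugation, and HDC-M replicate 3 is next lowest.

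The remaining induced genes were Ifi35, an adaptor-like protein, Ifi44, Parp14, an ADP-ribosyltransferase, and Socs1, which shuts Jak kinases off. Ifi35 had ratios of 0.17, 0.87 and 1.27 in HDC-A, 0.85, 0.99 and 0.35 in HDC-M and 1.13, 1.15 and 1.47 in HDC-S. HDC-S was above every HDC-M array and overlapped HDC-A. Ifi44 had ratios of -0.21, 0.84 and 0.99 in HDC-A, 0.25, 0.95 and 0.08 in HDC-M and 1.28, 0.91 and 0.75 in HDC-S, and all groups overlapped. Between HDC-S and HDC-M the difference was 0.52 for Ifi35, 0.55 for Ifi44, 0.38 for Parp14 and 0.16 for Socs1. The HDC-A minus HDC-M difference was 0.04 for Ifi35, 0.11 for Ifi44, -0.22 for Parp14 and -0.21 for Socs1, and for HDC-S minus HDC-A it was 0.48 for Ifi35, 0.44 for Ifi44, 0.60 for Parp14 and 0.37 for Socs1. Over the 4 genes the median HDC-S minus HDC-M difference was 0.45, and 0.21 without HDC-M replicate 3. The median HDC-A minus HDC-M difference was -0.09, and 0.36 without HDC-A replicate 1.

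Genes upstream of the response had smaller median spreads, and 3 of them passed in a comparison. The median pooled within-group SD was 0.128 over the interferons, 0.126 over receptors and kinases and 0.110 over sensing and signalling genes. Single genes varied more, with SDs up to 1.06 in HDC-A and 0.74 in HDC-M among sensing and signalling genes. HDC-A replicate 1 was the lowest HDC-A array for 11 of 13 of these and for 6 of 11 receptors and kinases. For HDC-M replicate 3 within HDC-M the counts were 8 of 14 and 10 of 11. Of 85 other pathway genes in all, 73 were measured. Of the 73, 1 passed in HDC-S against HDC-M, 1 in HDC-A against HDC-M and 2 in HDC-S against HDC-A (limma adjusted p below 0.05). Of all probes 0.681%, 1.44% and 5.26% passed in that order, so these counts are near the background. Of the 9 interferon genes, 4 were measured (Ifnb1, Ifna1, Ifng and Ifnl3) and 0 passed in any comparison (limma; 0 also at an unadjusted p below 0.05). The Ifnb1, Ifna1 and Ifnl3 probes lay at 1.08, 1.11 and 1.18 times the negative controls and were well above background on 4, 3 and 7 of 9 arrays, so a difference in them was hardly measurable at this signal. Ifng, the type II interferon, had ratios of 0.15, 0.72 and 1.32 in HDC-A, 0.81, 1.05 and 0.17 in HDC-M and 0.46, 0.63 and 0.79 in HDC-S. Its low arrays were HDC-A replicate 1 and HDC-M replicate 3, and its highest was HDC-A replicate 3, as for the mean over all members and over the GTPases. Its HDC-M replicate 2 was above replicate 1, as in the other members and unlike the mean of the GTPases, and its HDC-S values lay inside the HDC-M range. A link between Ifng and the members was not tested.

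Of 11 receptors and kinases, Ifnlr1, a subunit of the type III receptor, fell in HDC-S against HDC-M by 0.32 (SE 0.06, limma adjusted p = 0.0473) and in HDC-A against HDC-M by 0.32 (SE 0.06, limma adjusted p = 0.0362). Its ratios were -0.26, -0.37 and -0.25 in HDC-A, 0.05, 0.02 and 0.00 in HDC-M and -0.27, -0.27 and -0.36 in HDC-S. All HDC-M arrays were above all others, and both comparisons share them. The probe lay at 1.35 times the negative controls, and each call was lost in 18 of 22 alternatives (limma adjusted p up to 0.197 and 0.229), among them leaving out any HDC-M array. Ifnar2, a subunit of the type I receptor, rose in HDC-S against HDC-A by 0.44 (SE 0.10, limma adjusted p = 0.0362), with ratios of -0.63, -0.26 and -0.48 in HDC-A, -0.17, -0.07 and -0.26 in HDC-M and -0.01, 0.07 and -0.12 in HDC-S. Its other probe differed by 0.02 between HDC-S and HDC-A, and leaving out any of 7 of the 9 arrays ended the call (limma adjusted p up to 0.118). The other subunit, Ifnar1, gave 0.04 (SE 0.07) there and did not pass in any comparison.

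Of 14 measured sensing and signalling genes, Tlr9, a receptor for microbial DNA, fell in HDC-S against HDC-A by 0.38 (SE 0.09, limma adjusted p = 0.0379). Its ratios were 0.09, 0.18 and 0.13 in HDC-A, 0.04, 0.09 and 0.21 in HDC-M and -0.44, -0.16 and -0.14 in HDC-S, so every HDC-S array was below every other. Leaving out any of 8 of the 9 arrays ended the call (limma adjusted p up to 0.0933). Under median centring the limma adjusted p was 1.00 for Ifnar2 and Tlr9. The 44 measured induced genes outside the members followed the members' pattern, with means of 0.54 on HDC-A replicate 1 and 0.76 on HDC-M replicate 3 and 1.34 to 1.68 on the other arrays, over the 40 with complete values. In HDC-S against HDC-M, 42 of the 44 were positive (median 0.28), where 53.2% of all probes were, and 0 passed (limma; 2 at an unadjusted p below 0.05). Without HDC-M replicate 3 the median was 0.07, with 29 of the 44 positive. Among them Cxcl10, a chemokine that draws T cells, had ratios of 1.58, 2.39 and 2.90 in HDC-A, 2.79, 3.02 and 1.90 in HDC-M and 2.95, 3.31 and 3.78 in HDC-S, and Isg20, an RNA exonuclease, differed by 0.64 (SE 0.21, limma adjusted p = 0.229) between HDC-S and HDC-M.

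Markers of host cells moved with the low arrays in part. The mean ratio of 20 macrophage markers was 1.69, 2.39 and 2.06 in HDC-A, 2.02, 2.12 and 1.17 in HDC-M and 2.22, 2.29 and 1.89 in HDC-S, and 0 of 20 passed in any comparison (limma; at an unadjusted p below 0.05, 1 in HDC-S against HDC-M and 1 in HDC-S against HDC-A). HDC-M replicate 3 was the lowest HDC-M array for all 20 and HDC-A replicate 1 the lowest HDC-A array for 16. In HDC-S against HDC-M all 20 were positive, with a median of 0.34, and 0.02 without HDC-M replicate 3. The mean of 17 T and NK cell markers was 0.11 on HDC-A replicate 1, 0.06 on HDC-M replicate 3 and 0.31 to 0.57 on the other arrays, a list that holds Ifng, and 0 of 17 passed (limma; 0 at an unadjusted p below 0.05). The 7 measured dendritic cell markers had means of 0.24 to 0.92 and the 10 endothelial markers 0.66 to 1.53, and HDC-A replicate 1 was the lowest HDC-A array for 4 of 7 and 4 of 10, and HDC-M replicate 3 the lowest HDC-M array for 5 of 7 and 7 of 10. The means of 8 keratinocyte markers with complete values ran from 0.12 on HDC-S replicate 1 to 3.33 on HDC-M replicate 1, and all 10 measured were lower in HDC-S than in HDC-M (median -1.54; 0 passed with limma, 7 at an unadjusted p below 0.05). The part of these cells in the interferon values was not tested.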

How the data were processed

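Per the file headers, the deposited intensity values are each spot's mean brightness and median local background in both dyes, written by Agilent Feature Extraction 8.5.1.1. The deposited log10 ratios (Cy5 over Cy3) in the authors' value table match those of the scanner files exactly at all 43790 spots, so its scale and direction are known. Other columns per the file headers mark spots as well above background, saturated or outliers. Mean signals were corrected with normexp (offset 50) and normalised by loess within arrays (limma 3.58.1, R 4.3.3). Outlier spots and controls were left out, and spots of a probe averaged. A probe was kept with Cy5 well above background on at least 3 of 9 arrays (26871 of 41174), and the brightest stood for its gene. The Cy3 mark was not used, since 98.1% of negative controls carry it.

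Probes were named through the RefSeq table, by accession (22072 probes), another accession (142), a symbol (669) or an older symbol (727) in the description; 17564 stayed unnamed. A single limma model (lmFit, eBayes) held all 9 arrays, with Benjamini-Hochberg adjustment over all probes tested and a threshold of 0.05. Replicate numbers were checked for pairing by the correlation of arrays' deviations from their group means. For the same-numbered arrays of HDC-A and HDC-S it was 0.107, 0.548 and 0.131, and for those of the other groups -0.19 to 0.15. Of 18 differently numbered pairs, 6 were above 0.1, up to 0.284, and HDC-A replicate 1 with HDC-S replicate 3 gave 0.220. Only the replicate 2 arrays of HDC-A and HDC-S stood above every differently numbered pair. The numbers may pair HDC-A with HDC-S, but this is a weak hint from the data, and HDC-M gave no clear sign of pairing. Precision is limited by 3 arrays per group. Promoter sequences were matched by symbol.

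The members, the lists and the rule for naming genes were chosen with earlier results of these data known. All measured members are named; values on every array are given for the 2 of each role with the smallest F-test p, and for those with the largest and smallest SD. Of other pathway genes, those that passed are named, and otherwise the 2 of a list with the smallest F-test p; Ifng, Ifnl3 and Ifnar1 were added after their values were seen. Alternatives changed the background correction, normalisation, channel, filter, probe choice, block, scan day and arrays included.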

Additional observations from a re-analysis of the deposited data

How the results depend on the processing

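Directions of the list as a whole were kept in HDC-S against HDC-M, where the median difference lay above 0 in every alternative, but not in the other comparisons. Leaving out 1 array at a time gave medians of 0.18 to 0.59 for HDC-S against HDC-M, -0.23 to 0.44 for HDC-A against HDC-M and 0.05 to 0.71 for HDC-S against HDC-A. On the second scan day alone, with 1 array per group, the medians were 0.95, 1.13 and -0.05. Of 35 members, the sign of the difference turned in at least 1 alternative, the second scan day included, for 15, 34 and 22 in these comparisons. The number passing was 0 in all but 5 results. In HDC-S against HDC-A it was 1 of 35 (Irf9) with the replicate number as a block (0.62, limma adjusted p = 0.0454), where 4.19% of all probes passed. It was also 1 (Irf9) with all probes of a gene averaged, where 5.07% of all averaged values passed. Without HDC-A replicate 2 it was 1 (Irf9, whose HDC-A value then rests on replicate 1 alone), where 3.81% of probes passed. Without HDC-A replicate 1 it was 1 (Dhx58) in HDC-S against HDC-M, where 0.354% of probes passed, and in the F-test, where 1.96% did. Counts with 1 array left out thus ran from 0 to 1. The replicate block gave medians of 0.44, -0.07 and 0.48. The block changed no other call of a member. It gave no call for Ifnlr1 (limma adjusted p = 0.0944 against HDC-M for HDC-S and 0.0664 for HDC-A), whose groups gave no clear sign of pairing by number. With HDC-A replicate 1 and HDC-M replicate 3 left out together, an alternative chosen after seeing the data, the HDC-A against HDC-M median was 0.13. Probes near the negative controls, such as Oas3, Mx1 and the type I interferons, limit what a difference of 0 can show.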
